A study of Arabidopsis thaliana with 9 samples.

Results

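Catalases and ascorbate peroxidases are the enzymes that remove most hydrogen peroxide from plant cells, and the values below describe their transcripts in Arabidopsis thaliana seedlings exposed to cadmium. The set was taken by gene identifier and holds 8 of the 26973 genes in the deposited table. These are the 3 catalases CAT1 (AT1G20630), CAT2 (AT4G35090) and CAT3 (AT1G20620), and 5 ascorbate peroxidases, APX1 (AT1G07890), APX2 (AT3G09640), APX3 (AT4G35000), sAPX (AT4G08390) and tAPX (AT1G77490). All 8 were in the table, and 7 of them passed the filter on low values, which asks for a group mean of 1 FPKM or more in any genotype. APX2 was the gene that did not pass.

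RNA-seq was made from whole seedlings of 3 genotypes with 3 libraries each, the lines OXmiR400 and OXrPPR1 and the wild type (WT). OXmiR400 is named for the microRNA miR400 and OXrPPR1 for a pentatricopeptide repeat protein, PPR1. Seedlings of all 9 libraries, WT included, had been given 100 µM cadmium for 6 h, so the values compare genotypes under the metal, and its own effect was not analysed here. The sample titles begin with the word Colombia. Transgene promoters, the number of independent transformants and seedling age are not given in the labels. No label says whether the 3 libraries of a group are separate cultures, and the p-values then measure only their spread, which may be technical.

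Catalase breaks hydrogen peroxide down to water and oxygen without a reductant and works in peroxisomes, where photorespiration and fatty acid oxidation release the peroxide. Ascorbate peroxidase reduces hydrogen peroxide with ascorbate, has a much higher affinity for it, and is found in the cytosol, at peroxisomes and in chloroplasts. Cadmium is not redox active itself, but it is known to raise hydrogen peroxide in plant tissue.

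MIR400, the precursor locus of miR400, was listed at 629 to 953 FPKM in OXmiR400, against 0 to 0.572 FPKM in WT. PPR1 was listed at 21.9 to 25.5 FPKM in OXrPPR1, against 2.17 to 2.54 FPKM in WT. FPKM count fragments per kilobase of exon, scaled for the size of the library. The depth, computed from how finely low values are spaced, was 15.6 to 17.1 M units in OXmiR400, 19.3 to 21.1 M units in OXrPPR1 and 12.7 to 17.2 M units in WT. A unit was set at 4 steps of that spacing and is assumed to be a read or a fragment. A pair of libraries stood apart from their groups. On principal component 1 (24.9% of the variance) OXrPPR1 replicate 3 lay at 16.8, on the side of the WT libraries at 11 to 36.2, while OXrPPR1 replicates 1 and 2 lay at -9.9 and -18.1. On component 2 (18.3%) WT replicate 2 lay at -22.2, near OXrPPR1 replicates 1 and 2 at -20.6 and -28.3. Values that leaving out OXrPPR1 replicate 3 and WT replicate 2 moves across the threshold, or by a large amount, are given with and without both. This choice was made after seeing the data, so values without the pair are not independent evidence.

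The genes lie on chromosomes 1, 3 and 4 of TAIR10.1. CAT3 (chr1:7142972-7146540) and CAT1 (chr1:7146636-7150180) stand in tandem on the plus strand with 95 bases between them, CAT3 first. CAT2 (chr4:16700312-16703504) and APX3 (chr4:16664724-16667721) lie on the minus strand of chromosome 4, 32590 bases apart. APX1 (chr1:2437281-2439665), APX2 (chr3:2956156-2958330), sAPX (chr4:5314871-5317963) and tAPX (chr1:29117500-29121093) are on the plus strand. CAT2 overlaps the gene AT4G35080 on the other strand by 95 bases. That gene was listed at 12.6 to 22.8 FPKM, and since the use of strand in counting is not stated, reads in those bases cannot be told apart.

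The 250 bases before the annotated gene start are shown for CAT3, the most abundant transcript of the set, for CAT2, the most variable, and for APX1 and APX2, closely related cytosolic enzymes at opposite ends of the range of levels. Each is given 5′ to 3′ on the gene's own strand from the TAIR10.1 genome (RefSeq), with capitals marking matches to the motifs described after them. The last line holds all bases between CAT3 and CAT1, on the plus strand.
CAT3, chr1:7142722-7142971, plus strand: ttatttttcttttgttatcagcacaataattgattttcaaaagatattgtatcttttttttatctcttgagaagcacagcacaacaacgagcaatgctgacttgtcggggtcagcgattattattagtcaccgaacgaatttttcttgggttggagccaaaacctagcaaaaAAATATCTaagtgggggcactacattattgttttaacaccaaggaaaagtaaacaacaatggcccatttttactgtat
CAT2, chr4:16703505-16703754, minus strand: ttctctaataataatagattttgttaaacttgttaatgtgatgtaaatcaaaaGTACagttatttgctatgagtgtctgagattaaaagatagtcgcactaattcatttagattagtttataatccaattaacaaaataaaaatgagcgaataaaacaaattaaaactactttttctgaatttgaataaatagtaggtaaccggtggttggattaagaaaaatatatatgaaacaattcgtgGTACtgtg
APX1, chr1:2437031-2437280, plus strand: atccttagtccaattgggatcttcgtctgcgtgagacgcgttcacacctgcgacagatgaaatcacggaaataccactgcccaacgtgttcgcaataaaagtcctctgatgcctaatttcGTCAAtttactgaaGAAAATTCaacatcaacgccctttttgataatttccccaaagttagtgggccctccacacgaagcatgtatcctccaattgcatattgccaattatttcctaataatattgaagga
APX2, chr3:2955906-2956155, plus strand: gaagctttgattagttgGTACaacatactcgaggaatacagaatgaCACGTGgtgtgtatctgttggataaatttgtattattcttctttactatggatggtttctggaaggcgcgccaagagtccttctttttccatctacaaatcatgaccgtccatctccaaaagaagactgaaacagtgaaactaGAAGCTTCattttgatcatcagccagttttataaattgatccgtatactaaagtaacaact
CAT3 to CAT1, chr1:7146541-7146635, plus strand: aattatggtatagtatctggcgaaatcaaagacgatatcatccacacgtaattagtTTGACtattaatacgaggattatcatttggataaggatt

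Motifs were searched on both strands as the evening element AAATATCT, the CCA1-binding site AAAAATCT, the G-box CACGTG, the heat shock element GAANNTTC, the W-box TTGAC and the copper response core GTAC. CAT3 holds 1 evening element starting at base -78 from the gene start. Such a match was found in 4.8% of the 27443 windows of this length before starts of protein-coding genes. Evening elements are bound by clock proteins, and CAT3 is known as a transcript that peaks late in the day. CAT2 holds 2 copies of GTAC, at -197 and -8, a motif present in 34.3% of windows. APX1 and APX2 each hold 1 heat shock element, at -116 and -61, which 9.6% of windows do. APX2 also holds a G-box (6.5% of windows) and GTAC, and APX1 a W-box on the opposite strand, printed as GTCAA, at -130. The CAT3 to CAT1 interval is 68.4% A and T and holds 1 W-box, a match found in 20.2% of the windows of 95 bases before gene starts. Windows of CAT1, APX3 and tAPX run into a neighbouring gene and are not printed. A match is a string of letters in the window and is not a measured binding site.

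The catalases were a set of very unequal transcripts. CAT3 averaged 1174 FPKM over the 9 libraries, rank 39 of the 26973 genes, and made up 90.11% to 94.65% of the summed catalase FPKM in every library. CAT2 followed at 76.3 FPKM and CAT1 at 22.7 FPKM. Among the ascorbate peroxidases APX1 averaged 205 FPKM (rank 404), APX3 120 FPKM, tAPX 26.2 FPKM and sAPX 22.7 FPKM. These levels are per kilobase of all annotated exons of a gene, so setting genes beside each other depends on the annotated transcripts. CAT3 has 3385 exon bases over 6 transcripts and CAT1 2226 over 1, while sAPX has 1980 over 5 and tAPX 2516 over 2. CAT3, APX1, APX3 and CAT2 held this order in 9 of 9 libraries, with each gene above the next, and CAT2 lay above tAPX in all 9. The levels of tAPX, CAT1 and sAPX below them overlapped over the 9 libraries. In OXmiR400 tAPX (27.7 to 32.6 FPKM) lay above CAT1 (17.5 to 19.2 FPKM) and sAPX (16.7 to 22.5 FPKM) in 3 of 3 libraries. Together the 8 genes took 0.229% to 0.302% of all FPKM in a library.

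**Figure D1:**
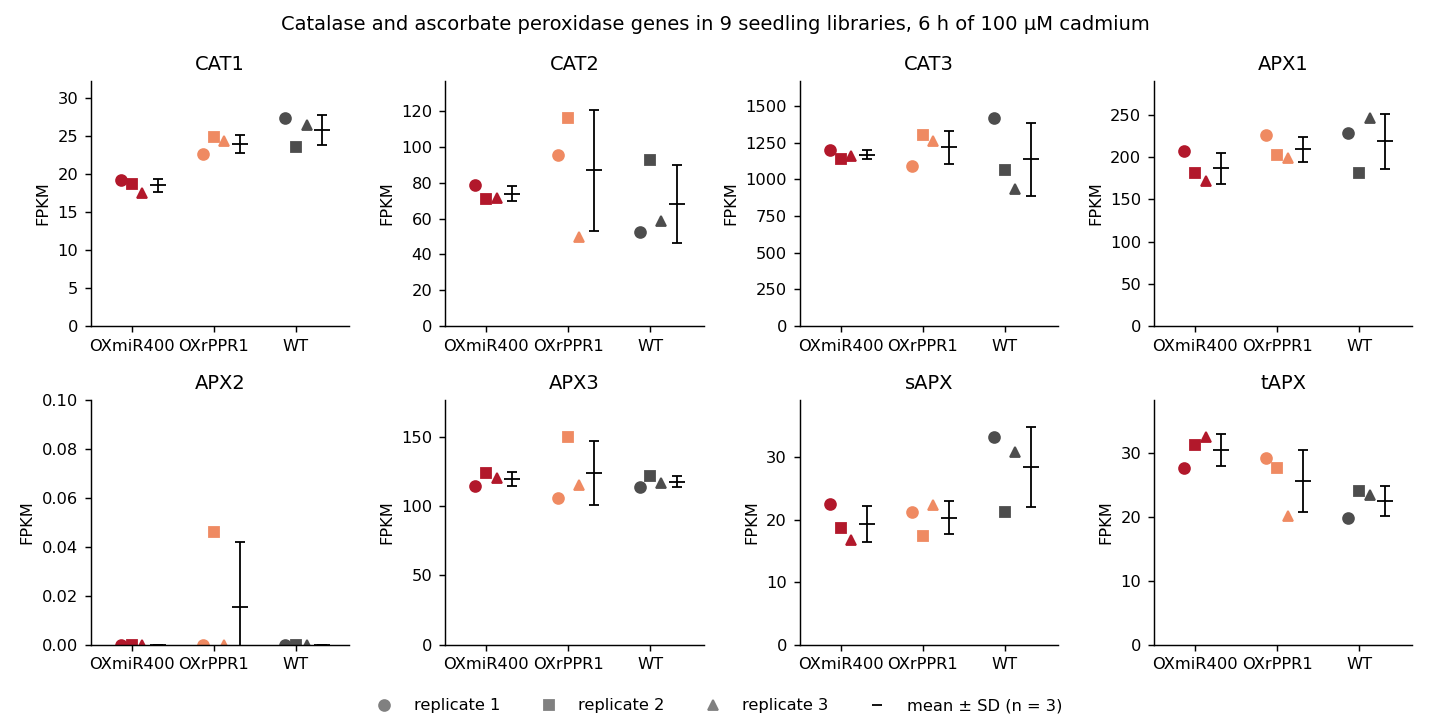
FPKM (vertical axes, each starting at 0) of the 8 genes in the OXmiR400, OXrPPR1 and WT libraries, with a marker per replicate and a black bar for the mean ± SD (n = 3). CAT1 lies lower in the 3 OXmiR400 libraries than in the other 6, CAT2 is scattered in OXrPPR1 and WT, and APX2 is at 0 in all but 1 library.

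CAT1 was the member with the clearest difference between genotypes. This catalase is known mainly from pollen, seeds and tissue under stress or abscisic acid. It was listed at 19.2, 18.7 and 17.5 FPKM in OXmiR400 replicates 1 to 3, at 22.7, 24.8 and 24.3 FPKM in OXrPPR1, and at 27.3, 23.6 and 26.5 FPKM in WT. All 3 OXmiR400 libraries lay below all 6 others, while OXrPPR1 and WT overlapped. The means were 18.5 ± 0.870, 23.9 ± 1.13 and 25.8 ± 1.95 FPKM in OXmiR400, OXrPPR1 and WT (SD, n = 3 each). Against WT the log2 fold change in OXmiR400 was -0.46 ± 0.09 (SE; 95% interval -0.66 to -0.25), with adjusted p = 0.0638 in limma over all genes tested, which misses the threshold of 0.05. With OXrPPR1 replicate 3 and WT replicate 2 left out it was -0.52, with adjusted p = 0.0490 in limma, which passes. The unadjusted p of CAT1 did not fall, at 0.000617 with all libraries and 0.000866 without the pair (limma). Genes called in this comparison rose from 114 to 373, and the adjusted p depends on all genes. WT replicate 2 was also the lowest WT library for CAT1, so this pass is not independent evidence. Against OXrPPR1 the log2 fold change of CAT1 in OXmiR400 was -0.36 ± 0.09 (adjusted p = 0.394 in limma). For CAT1, OXrPPR1 against WT gave -0.10 (95% interval -0.31 to 0.11, adjusted p = 0.735 in limma).

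CAT2 is the main catalase of leaves and handles the peroxide of photorespiration. Its levels were 78.8, 71.2 and 71.7 FPKM in OXmiR400, 95.3, 116 and 49.5 FPKM in OXrPPR1, and 52.7, 92.8 and 58.5 FPKM in WT. The OXmiR400 libraries lay close together, and the OXrPPR1 and WT libraries spread over the whole range with overlap. The coefficient of variation of CAT2 was 5.76% in OXmiR400, 39.2% in OXrPPR1 and 31.8% in WT. Among the 10490 genes averaging 10 FPKM or more, the median coefficient was 8.14%, 11.7% and 10.5% in OXmiR400, OXrPPR1 and WT, and 4.09% of genes in OXrPPR1 and 5.97% in WT varied as much as CAT2. The libraries behind this spread are the pair that stood apart: OXrPPR1 replicate 3 had the lowest CAT2 level of all 9 and WT replicate 2 the highest of the WT libraries.

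For CAT2 the log2 fold change was 0.16 ± 0.30 in OXmiR400 against WT (adjusted p = 0.839 in limma) and 0.31 ± 0.30 in OXrPPR1 against WT (95% interval -0.38 to 1.00, adjusted p = 0.762). Without OXrPPR1 replicate 3 and WT replicate 2 these values were 0.40 (adjusted p = 0.146) and 0.91 (adjusted p = 0.0525), both still short of the threshold in limma. With single libraries left out, OXmiR400 against WT ran from 0.0015 (without WT replicate 1) to 0.40 (without WT replicate 2), and OXrPPR1 against WT from 0.0583 (without OXrPPR1 replicate 2) to 0.66 (without OXrPPR1 replicate 3), with no call in limma. OXmiR400 against OXrPPR1 gave -0.15 with all libraries and -0.50 without the pair (adjusted p = 0.261 in limma). Leaving out libraries for where they lie on the components, as done here, also removes the lowest CAT2 value of OXrPPR1 and the highest of WT, so the larger difference is not independent evidence.

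CAT3, known from the vasculature and from older leaves, had 1200.2, 1141 and 1160 FPKM in OXmiR400, 1090, 1302 and 1264 FPKM in OXrPPR1, and 1415, 1061 and 933 FPKM in WT. WT held both the highest and the lowest library. The means were 1167 ± 30.3, 1219 ± 113 and 1136 ± 250 FPKM in OXmiR400, OXrPPR1 and WT (SD, n = 3 each). Neither line differed detectably from WT, with log2 fold changes of 0.06 (95% interval -0.30 to 0.42) in OXmiR400 and 0.12 (-0.24 to 0.48) in OXrPPR1. Since CAT3 carries most of the sum, summed catalase FPKM varied in the same way, at 1298, 1231 and 1250 in OXmiR400, 1208, 1443 and 1338 in OXrPPR1, and 1495, 1177 and 1018 in WT.

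CAT3 and CAT1, neighbours in tandem with the short interval printed above, did not vary together: over the 9 libraries their log2 levels had a Pearson r of 0.09 and a Spearman rho of 0.25. CAT3 exceeded CAT1 by 62.5, 61.0 and 66.3 times in OXmiR400, by 48.1, 52.5 and 52.0 times in OXrPPR1, and by 51.9, 45.0 and 35.2 times in WT. The OXmiR400 ratios lay above all 6 others.

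**Figure D2:**
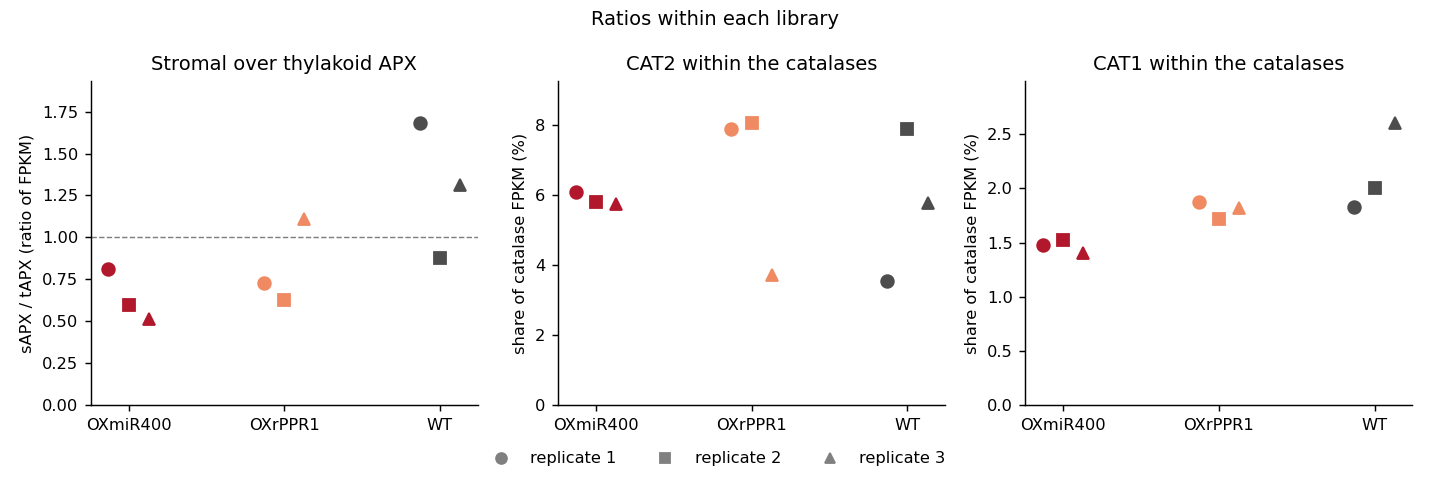
Ratios within each library, with genotypes on the horizontal axis and a marker per replicate: sAPX over tAPX FPKM (left; dashed line at 1), and the percent of summed catalase FPKM from CAT2 (middle) and CAT1 (right). The sAPX to tAPX ratio is 0.514 to 0.812 in OXmiR400 and 0.880 to 1.68 in WT, and the CAT1 share is 1.40% to 1.52% in OXmiR400 and 1.82% to 2.60% in WT.

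APX1, the main cytosolic ascorbate peroxidase, had 207, 181 and 172 FPKM in OXmiR400, 226, 203 and 199 FPKM in OXrPPR1, and 228, 182 and 246 FPKM in WT. The groups overlapped, with the 2 lowest libraries in OXmiR400 and the highest in WT. Its log2 fold change was -0.22 ± 0.14 in OXmiR400 against WT (95% interval -0.52 to 0.09, adjusted p = 0.474 in limma) and -0.05 ± 0.14 in OXrPPR1 against WT (adjusted p = 0.927). APX1 made up 50.4% to 59.1% of the summed ascorbate peroxidase FPKM.

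APX2 is the cytosolic form known for strong induction by heat and excess light. It was listed at 0 in 8 of 9 libraries and at 0.0460 FPKM in OXrPPR1 replicate 2, which corresponds to 1 unit. Transcripts of APX2 were thus at the edge of detection in all 3 genotypes after 6 h of cadmium, and a difference between genotypes was not detectable at this depth.

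APX3, which is anchored at the peroxisomal membrane, was among the steadiest members. It had 114, 124 and 120 FPKM in OXmiR400, 106, 149.8 and 115 FPKM in OXrPPR1, and 114, 122 and 117 FPKM in WT. All libraries but OXrPPR1 replicate 2 lay within a narrow band, and the groups overlapped. The log2 fold change was 0.02 (95% interval -0.26 to 0.31) in OXmiR400 against WT and 0.06 (-0.23 to 0.35) in OXrPPR1 against WT.

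The chloroplast enzymes gave log2 fold changes of opposite sign, none of which passed the threshold. The stromal enzyme sAPX had 22.5, 18.6 and 16.7 FPKM in OXmiR400, 21.3, 17.3 and 22.3 FPKM in OXrPPR1, and 33.2, 21.2 and 30.8 FPKM in WT. WT replicates 1 and 3 lay above every library of both lines, and WT replicate 2 lay among them. The log2 fold change was -0.52 ± 0.18 in OXmiR400 against WT (95% interval -0.92 to -0.13, adjusted p = 0.196 in limma) and -0.45 ± 0.18 in OXrPPR1 against WT (adjusted p = 0.418). Without OXrPPR1 replicate 3 and WT replicate 2 both values were -0.71, with adjusted p = 0.0533 for OXmiR400 and 0.110 for OXrPPR1 in limma. These comparisons share the WT libraries.

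The thylakoid-bound enzyme tAPX had 27.7, 31.2 and 32.6 FPKM in OXmiR400, 29.2, 27.7 and 20.1 FPKM in OXrPPR1, and 19.8, 24.1 and 23.5 FPKM in WT. All OXmiR400 libraries lay above all WT libraries, and OXrPPR1 spanned both. The log2 fold change was 0.43 ± 0.15 in OXmiR400 against WT (95% interval 0.10 to 0.75, adjusted p = 0.199 in limma) and 0.17 ± 0.15 in OXrPPR1 against WT (adjusted p = 0.712). With the pair of libraries left out these were 0.48 (adjusted p = 0.0940) and 0.39 (adjusted p = 0.214).

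The ratio of sAPX to tAPX within a library, a quantity chosen after the values were seen and so given with no test, was 0.812, 0.597 and 0.514 in OXmiR400, 0.727, 0.626 and 1.11 in OXrPPR1, and 1.68, 0.880 and 1.31 in WT. OXmiR400 lay below WT in every library, and OXrPPR1 replicate 3 lay within the WT range. The sum of both was 50.2, 49.9 and 49.3 FPKM in OXmiR400, 50.5, 45.0 and 42.4 FPKM in OXrPPR1, and 53.0, 45.4 and 54.3 FPKM in WT, with all groups overlapping. tAPX was the higher of the pair in 3 of 3 OXmiR400 libraries, 2 of 3 OXrPPR1 libraries and 1 of 3 WT libraries.

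Read as a set, no member was called in any comparison at adjusted p under 0.05. In OXmiR400 against WT 0 of 7 tested members were called by limma, beside 0.571% of the 19955 genes tested. At unadjusted p under 0.05 there were 3 of 7, beside 15.9% of all genes: tAPX was higher, as were 6.71% of all genes, and CAT1 and sAPX were lower, as were 9.19%. Libraries did not overlap for 2 members, CAT1 and tAPX, beside 24.3% of all genes. The median log2 fold change of the members was 0.02, against -0.02 over all genes.

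In OXrPPR1 against WT 0 of 7 were called by limma, beside 0.0651% of all genes. The only member at unadjusted p under 0.05 was sAPX, which was lower, beside 10.5% of all genes (4.81% higher and 5.7% lower). No member had libraries that did not overlap (14.7% of all genes did), and the median was 0.06, against -0.02 over all genes. In OXmiR400 against OXrPPR1 0 of 7 were called by limma, beside 0.0651% of all genes. CAT1, which was lower, was the only member at unadjusted p under 0.05, beside 7.41% of all genes (3.34% higher and 4.06% lower). It was also the only one without overlap, beside 13.2% of all genes. The median was -0.07, against 0.00 over all genes. With 7 genes, such counts are too small to set the members apart from all genes in either direction.

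**Figure D3:**
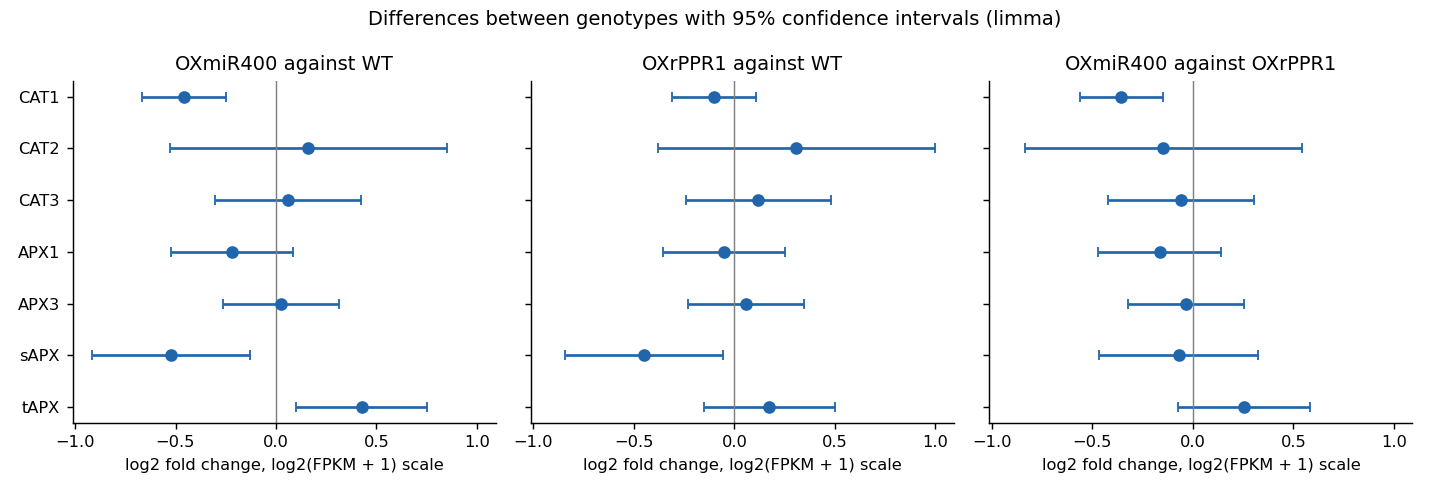
Log2 fold change with its 95% confidence interval (horizontal axis, log2(FPKM + 1) scale, limma) for the 7 members that passed the filter, in OXmiR400 against WT, OXrPPR1 against WT and OXmiR400 against OXrPPR1. The intervals of CAT1, sAPX and tAPX lie off 0 in OXmiR400 against WT, that of sAPX in OXrPPR1 against WT, and that of CAT1 between the lines; these intervals are not adjusted for the number of genes tested.

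Members varied with each other to different degrees over the 9 libraries, which share their genotypes and, within a library, their scaling. On the log2 scale, CAT1 and tAPX had a Pearson r of -0.81 (Spearman rho -0.90), sAPX and tAPX -0.75 (-0.73), APX1 and sAPX 0.78 (0.82), and CAT1 and APX1 0.70 (0.73). CAT3 had no r beyond -0.27 or 0.23 with any other member. These are descriptions over 9 libraries in 3 genotypes, and part of each value is the difference between genotypes given above.

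Genes whose levels ran most like a member's were found by Pearson r over the 9 libraries among genes with a symbol. For CAT1 they were UXS5, a UDP-xylose synthase (r = 0.988), ATSDI1, a gene induced by sulfur shortage (0.981), and WRKY65, a transcription factor (0.971). CAT2 ran with DET2, an enzyme of brassinosteroid synthesis (0.968), TPS12 (0.962) and the thioredoxin WCRKC2 (0.944). CAT3 had NRPB8B, an RNA polymerase subunit (0.934), ORP3C (0.917) and AFO, a YABBY transcription factor (0.915).

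For the peroxidases, APX1 ran with the calmodulin CAM4 (r = 0.951), the tubulin TUB1 (0.919) and emb1417 (0.917). APX3 ran with HCF244, a factor of photosystem assembly (0.979), G-TMT, an enzyme of tocopherol synthesis (0.967), and LTP6 (0.955). The genes most like sAPX were NAPRT1, an enzyme of NAD salvage (0.972), the calcium-dependent kinase CPK6 (0.9704) and MORF4, a member of the organelle RNA editing factors (0.9701). Those most like tAPX were the tetraspanin TET7 (0.983), PEX19-2, a peroxisome import factor (0.948), and GolS2, a galactinol synthase (0.945). The highest of many correlations over 9 points is high for any gene, so these names are a description.

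The wider family and the machinery around these enzymes were read from lists. NCA1, the chaperone that catalase needs for activity, had 74.4 to 79.5 FPKM in OXmiR400, 68.8 to 80.3 FPKM in OXrPPR1 and 77.3 to 79.3 FPKM in WT. APX4, a thylakoid lumen protein of the family, lay between 76.0 and 95.7 FPKM over all 9 libraries, APX6 between 16.8 and 24.3 FPKM and APX5 between 1.11 and 2.24 FPKM. None of these 4 was called or had an unadjusted p under 0.05 in any comparison (limma), and all of them overlapped between genotypes.

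Across 8 lists of peroxide metabolism with 67 genes, 64 were tested and 0 were called by limma in any comparison. At unadjusted p under 0.05 there were 2 higher and 11 lower in OXmiR400 against WT (20.3% of 64, beside 15.9% of all genes), 2 higher and 3 lower in OXrPPR1 against WT (7.81%, beside 10.5%), and 1 higher and 4 lower between the lines (7.81%, beside 7.41%).

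Peroxisomal oxidases, which make the hydrogen peroxide that catalase removes, held 5 of the 11 lower genes in OXmiR400 against WT. At unadjusted p under 0.05 in limma, 9.19% of all genes were lower in that comparison. Of the 11 oxidases, 9 had a log2 fold change below 0, and the list's median was -0.18, against -0.02 over all genes. ACX2, an acyl-CoA oxidase of fatty acid breakdown, averaged 40.8 ± 6.14, 59.4 ± 9.99 and 68.1 ± 9.75 FPKM in OXmiR400, OXrPPR1 and WT (SD, n = 3 each), with a log2 fold change of -0.72 in OXmiR400 against WT (adjusted p = 0.0818 in limma). Its relative ACX3 averaged 22.2 ± 1.36, 24.3 ± 1.53 and 29.1 ± 1.41 FPKM in OXmiR400, OXrPPR1 and WT, a log2 fold change of -0.38 in OXmiR400 against WT (adjusted p = 0.0978). For both genes the OXmiR400 and WT libraries did not overlap, as was so for 24.3% of all genes. GOX3, a glycolate oxidase, gave -0.78 (adjusted p = 0.214 in limma). The more abundant glycolate oxidases GOX1 and GOX2 averaged 297 and 242 FPKM in OXmiR400, against 298 and 237 FPKM in WT. In OXrPPR1 against WT 7 of 11 oxidases were below 0, with a median of -0.07 and 1 gene at unadjusted p under 0.05, ACX3 (-0.26, adjusted p = 0.387).

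Among the enzymes that regenerate ascorbate and glutathione for the peroxidases, 10 were tested. DHAR2, a cytosolic dehydroascorbate reductase, had 32.5, 27.7 and 33.5 FPKM in OXmiR400, 42.9, 47.6 and 43.6 FPKM in OXrPPR1, and 61.4, 36.3 and 72.2 FPKM in WT. OXmiR400 lay below all other libraries, and WT replicate 2 lay below OXrPPR1. Its log2 fold change in OXmiR400 against WT was -0.79 (adjusted p = 0.121 in limma); without WT replicate 2 it was -1.07 (adjusted p = 0.0108), and without the pair of libraries also -1.07 (adjusted p = 0.00916). Leaving out WT replicate 2, the WT library of DHAR2 nearest OXmiR400, enlarges the difference, so these passes are not independent evidence. DHAR3 and GR1 came next by p, at 0.23 (adjusted p = 0.334) and -0.25 (adjusted p = 0.429) in limma. In OXrPPR1 against WT 8 of 10 were below 0 with a median of -0.13, and none reached an unadjusted p under 0.05; MDAR1, a monodehydroascorbate reductase, gave -0.40 (adjusted p = 0.546).

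Of the 9 tested genes of ascorbate synthesis, VTC4 gave -0.31 (adjusted p = 0.295) and PMI1 0.32 (adjusted p = 0.363) in OXmiR400 against WT in limma. VTC2, the main control step of the pathway, gave -0.34 (adjusted p = 0.477) in OXrPPR1 against WT and 0.51 (adjusted p = 0.505) in OXmiR400 against OXrPPR1.

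Of 8 tested peroxiredoxins, thiol enzymes that also reduce peroxide, 4 were above 0 and 4 below in each line against WT, and the smallest p in OXmiR400 against WT belonged to the 2-Cys pair of the chloroplast. 2CPA had 211, 225 and 215 FPKM in OXmiR400, 189, 222 and 193 FPKM in OXrPPR1, and 163, 175 and 171 FPKM in WT. Every library of both lines lay above every WT library. The log2 fold change was 0.35 in OXmiR400 (adjusted p = 0.140 in limma) and 0.24 in OXrPPR1 (adjusted p = 0.445) against WT. Its paralog 2CPB gave 0.26 (adjusted p = 0.258) and 0.22 (adjusted p = 0.481) in OXmiR400 and OXrPPR1 against WT, also without overlap. In OXmiR400 against WT libraries did not overlap for 4 peroxiredoxins that were higher and for 2 that were lower, PRXIIB and PRXIIF. That held for 24.3% of all genes. In OXrPPR1 against WT 2 peroxiredoxins did not overlap, both higher, beside 14.7% of all genes. The WT libraries are the same in both comparisons.

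Of the 7 tested glutathione peroxidases, 5 were above 0 in each line against WT, with medians of 0.07 in OXmiR400 and 0.24 in OXrPPR1. GPX6 averaged 103 ± 1.89, 125 ± 23.6 and 147 ± 15.1 FPKM in OXmiR400, OXrPPR1 and WT, with -0.51 in OXmiR400 against WT (adjusted p = 0.126 in limma). GPX8 averaged 28.5 ± 2.21, 34.3 ± 1.59 and 27.1 ± 1.52 FPKM in OXmiR400, OXrPPR1 and WT, with 0.33 in OXrPPR1 against WT (adjusted p = 0.268). GPX7 had 0.138 FPKM in WT replicate 1, against 3.58 and 4.48 FPKM in WT replicates 2 and 3. Of the 7 superoxide dismutases, which supply hydrogen peroxide from superoxide, the iron enzyme FSD1 gave -0.70 in OXmiR400 against WT (adjusted p = 0.199) and -0.56 in OXrPPR1 against WT (adjusted p = 0.457). Without the pair of libraries FSD1 gave -0.89 and passed in OXmiR400 against WT (adjusted p = 0.0406 in limma), as did GOX3 at -1.03 (adjusted p = 0.0240). For both genes WT replicate 2 was the WT library nearest OXmiR400. Leaving it out enlarges the difference, so these passes are not independent evidence.

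Genes known to respond to hydrogen peroxide were mostly at lower values in the lines, with 0 called by limma. Of 8 tested, 6 were below 0 against WT in OXmiR400 and 6 in OXrPPR1, with medians of -0.27 and -0.37, against -0.02 over all genes in each. UPOX and UGT74E2 went the other way in both lines. UPOX averaged 69.9 ± 9.55, 67.1 ± 44.7 and 54.3 ± 36.1 FPKM in OXmiR400, OXrPPR1 and WT (SD). UGT74E2 averaged 9.31, 10.4 and 8.73 FPKM in the same order. HSFA4A, among the genes below 0, averaged 12.5, 12.1 and 12.7 FPKM in that order. The WT libraries are common to both comparisons, so the 2 lines are not independent here. WT replicate 1 was the highest of all libraries for ZAT12, DREB2A (18.0 FPKM) and BAP1 (4.43 FPKM). OXI1, a kinase induced by oxidative signals, had 2.63, 2.08 and 1.26 FPKM in OXmiR400, 3.16, 4.30 and 3.34 FPKM in OXrPPR1, and 4.87, 4.87 and 3.99 FPKM in WT. OXmiR400 lay below both other groups, with -0.92 against WT (adjusted p = 0.0703 in limma). The zinc finger gene ZAT12, which responds to many stresses, gave -0.85 in OXrPPR1 against WT (adjusted p = 0.333), where WT replicate 1 stood high at 28.7 FPKM beside 14.4 and 13.7 FPKM in WT replicates 2 and 3.

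**Figure D4:**
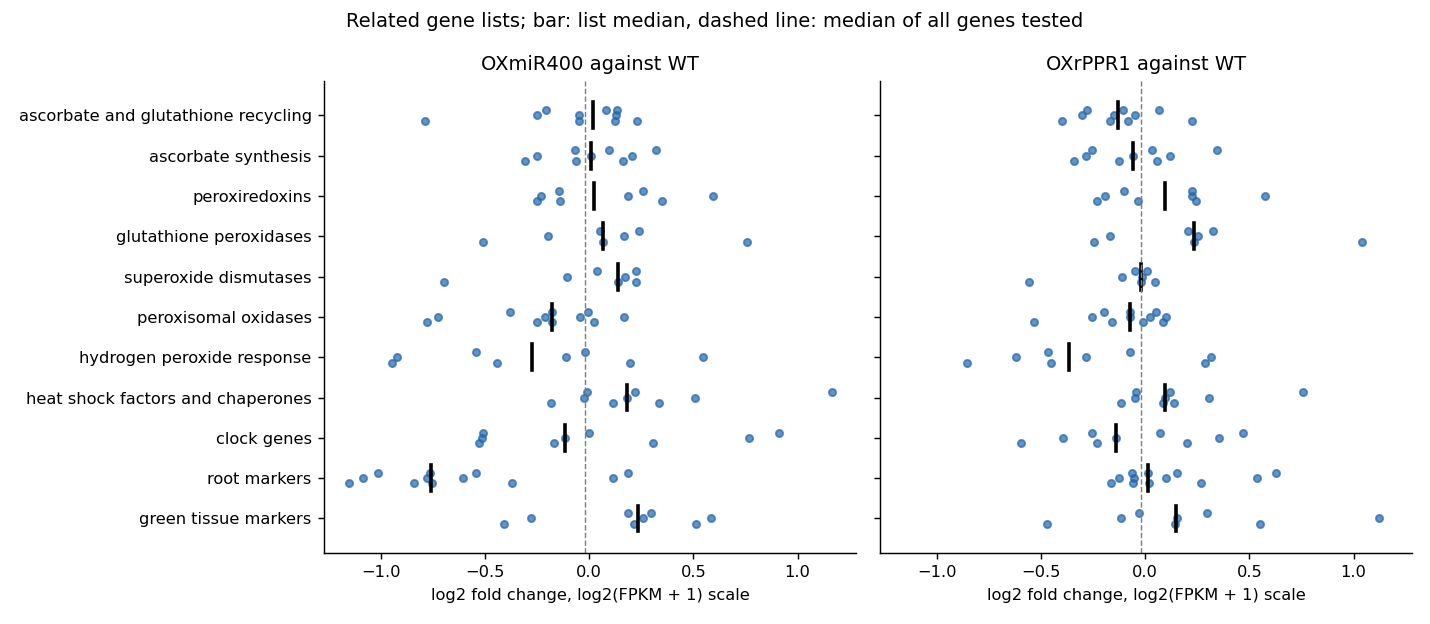
Log2 fold change (horizontal axis, log2(FPKM + 1) scale) of each tested gene of 11 lists in OXmiR400 against WT and OXrPPR1 against WT; a point is a gene, a bar the list's median and the dashed line the median of all genes tested. Peroxisomal oxidases, hydrogen peroxide response genes and root markers have medians of -0.18, -0.27 and -0.76 in OXmiR400 against WT.

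Beside APX2, 9 of 12 heat shock factors and chaperones passed the filter, and 0 had an unadjusted p under 0.05 in any comparison. HSFA2, a factor known to act on APX2, had 5.47, 2.41 and 2.02 FPKM in OXmiR400, 2.07, 1.49 and 2.61 FPKM in OXrPPR1, and 2.70, 1.096 and 1.97 FPKM in WT, with overlap between all groups. The summed FPKM of the list was 125 to 188 in OXmiR400, 128 to 152 in OXrPPR1 and 131 to 144 in WT.

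Beside CAT2 and CAT3, which are known for peaks at opposite times of day, a list of 9 clock genes was read. CCA1, which peaks at dawn, had 10.9, 11.5 and 9.94 FPKM in OXmiR400, 7.62, 6.60 and 6.70 FPKM in OXrPPR1, and 6.17, 7.14 and 4.66 FPKM in WT. The OXmiR400 libraries lay above all others, with 0.77 against WT (adjusted p = 0.0546 in limma). Without WT replicate 2 this value was 0.88 and passed the threshold (adjusted p = 0.0379 in limma), as it did without the pair of libraries (0.88, adjusted p = 0.0302 in limma). WT replicate 2 was the WT library of CCA1 nearest OXmiR400, so leaving it out enlarges the difference and these passes are not independent evidence. The evening genes TOC1 and GI gave -0.53 (adjusted p = 0.0716) and -0.51 (adjusted p = 0.0879) in OXmiR400 against WT, and -0.39 (adjusted p = 0.266) and -0.60 (adjusted p = 0.119) in OXrPPR1 against WT. ELF4 averaged 32.8, 43.0 and 33.4 FPKM in OXmiR400, OXrPPR1 and WT, and LUX 16.5, 19.0 and 18.0 FPKM. In each line against WT 4 clock genes were above 0 and 5 below. Of 9 clock genes, 5 had an unadjusted p under 0.05 in OXmiR400 against WT, where 15.9% of all genes did, and 2 in OXrPPR1 against WT, where 10.5% did. Their part in the catalase values was not tested.

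Tissue markers were read beside the members. The 12 root markers summed to 54.0, 56.2 and 48.8 FPKM in OXmiR400, 126, 72.6 and 107 FPKM in OXrPPR1, and 89.6, 95.2 and 111 FPKM in WT, with none at 0 in any library. OXmiR400 lay below both other groups: 10 of 12 markers were below 0 against WT, 8 of them with an unadjusted p under 0.05, against 9.19% of all genes lower at that p, and their median was -0.76. None was called in limma with all libraries. Without the pair of libraries PRX44 (-1.52) and PRX73 (-1.45), peroxidases of root hairs, were lower in OXmiR400 than in WT (adjusted p = 0.00854 for both in limma). For both genes WT replicate 2, left out here, was the WT library nearest OXmiR400, so these passes are not independent evidence. With only the 6 libraries compared, CASP1 (-0.84, adjusted p = 0.0112 in limma) and CASP2 (-0.76, adjusted p = 0.0332 in limma), proteins of the Casparian strip, passed as well. CASP1 also passed without OXrPPR1 replicate 1 or replicate 2 and CASP2 without OXrPPR1 replicate 1, at adjusted p of 0.0274 to 0.0421 in limma. The 2 root markers above 0 in OXmiR400 against WT, CASP4 and CASP5, belong to the same Casparian strip family. CASP4 averaged 6.06 FPKM in OXmiR400 and 5.21 FPKM in WT, and CASP5 1.61 and 1.68 FPKM. The 8 green tissue markers summed to 8504 to 10543 FPKM in OXmiR400, 7571 to 10540 FPKM in OXrPPR1 and 6983 to 8065 FPKM in WT, with a median of 0.24 in OXmiR400 against WT. In that comparison 6 of 8 lay above 0, GLDP1 (-0.41) and SHM1 (-0.28) lay below, and 0 were called in limma. LHCB1.1, a light-harvesting protein, was the 1 marker with an unadjusted p under 0.05 (0.59, adjusted p = 0.228 in limma). CAT1 was lower in OXmiR400 than in WT, as the root sum was, and tAPX higher, as the green sum was. Within WT, replicate 1 had the lowest root sum and the highest CAT1 (27.3 FPKM). Within OXrPPR1, replicate 2 had the lowest root sum and the highest CAT1 (24.8 FPKM). For tAPX, the lowest WT level and the lowest WT green sum were both in replicate 1. In OXrPPR1 tAPX was highest in replicate 1 and the green sum in replicate 2. The part of tissue in the member values was not tested. In whole seedlings, fewer cells of a type and less RNA per cell cannot be told apart.

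Seed storage and oil body markers, read because CAT1 is abundant in seeds, summed to 0.254 to 0.631 FPKM in OXmiR400, 0.312 to 1.30 FPKM in OXrPPR1 and 0.215 to 1.32 FPKM in WT, and none of the 4 passed the filter. For senescence, with which CAT3 is associated, SAG13 reached at most 1.64 FPKM, in OXrPPR1 replicate 2, and NYE1 did not differ detectably (adjusted p = 0.801 for OXmiR400 and 0.873 for OXrPPR1 against WT in limma).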

How the data were processed

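The values deposited by the authors are taken as FPKM; no label or file header gives a unit, and the values alone were used to infer it. Per the labels' protocols, RNA was extracted with TRIzol and made into libraries with a SMARTer mRNA kit. The submitters' processing notes name GRCm38 and mm10, which are mouse builds, while 26504 of the 26513 genes matched to the TAIR10.1 annotation (RefSeq) have its start, end and strand. Not given in the sources used here: alignment, counting and the use of strand or shared reads. All 3 deposited tables had the same content, and 1 was used. Low values times exon length lay on multiples of a step (within 0.05 of it), with 4 steps to a unit, in 99.5% to 99.7% of cases, but on whole units in 48.8% to 53.9%, so no count model was used.

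Genes whose mean reached 1 FPKM in any genotype (19955) were fitted as log2(FPKM + 1) in limma 3.58.1 (R 4.3.3), with all 3 genotypes in a single model, a trended robust variance and Benjamini-Hochberg adjustment over all genes kept. Genes were called at adjusted p under 0.05. The scale understates the change of genes with low values. The method was tested on simulated data with the means and spreads of these genes. It called 219 (73%) of 300 changes of 2-fold and 285 (95%) of 300 changes of 4-fold, with 23 false calls. Changes were placed only in OXmiR400 and in genes averaging above about 5 FPKM, with noise independent between genes and libraries. These shares therefore do not cover genes of lower level or libraries that stand apart. Changes under 2-fold, such as those of the members with all libraries, were not simulated, so a missing call does not show their absence. By rule, named genes were all members, the members of each list that were called or else up to 3 with the smallest p, and, for each member of at least 5 FPKM, the 3 most correlated genes with a symbol; not every list gene the rule allows is given. The members and lists were chosen with earlier results of these data known. Alternatives were other normalizations, filters, pseudocount, variance model and sets of genes and libraries, and the replicate number as a block.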

Additional observations from a re-analysis of the deposited data

How the results depend on the processing

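For the 7 tested members in 3 comparisons, 399 log2 fold changes were recomputed over 19 settings, and 390 kept both their sign and their side of the threshold. Settings that change only the genes kept, the variance model, the block or the libraries of the third genotype leave the log2 fold change as it was. They can move only the adjusted p, so the signs kept under them are no evidence of stability. CAT1 in OXmiR400 against WT ran from -0.52 to -0.42, with adjusted p from 0.0490 to 0.210 in limma, and passed only with OXrPPR1 replicate 3 and WT replicate 2 both left out (-0.5184). The sign turned in 8 cases, all small values, as single libraries were left out. Without WT replicate 3, CAT3 gave -0.0705 in OXmiR400 against WT (range over single libraries left out up to 0.23) and -0.0123 in OXrPPR1 against WT (up to 0.2881), and APX1 gave 0.0378 in OXrPPR1 against WT (down to -0.1794). APX3 gave -0.0021 in OXmiR400 against WT without OXmiR400 replicate 2 (up to 0.0565). Without OXrPPR1 replicate 2 it gave -0.0865 in OXrPPR1 against WT (up to 0.1608) and 0.111 in OXmiR400 against OXrPPR1 (down to -0.1363), where CAT2 gave 0.102 (down to -0.5043). In the same comparison sAPX gave 0.0213 without OXmiR400 replicate 3 (down to -0.1823). Genes called in OXmiR400 against WT numbered 114, and 66 with no filter, 216 with only the 6 libraries compared, 373 without the pair of libraries and 8 to 194 with single libraries left out. In OXrPPR1 against WT there were 13, and 8, 39, 37 and 4 to 44 under the same settings. In OXmiR400 against OXrPPR1 there were 13, and 24 with 6 libraries, 34 without the pair and 7 to 18 with single libraries left out. Leaving out single libraries gave 0 to 1 called genes of the 8 pathway lists in OXmiR400 against WT (DHAR2, without WT replicate 2), and leaving out the pair gave 3. The causes were not tested. With the replicate number as a block there were 92, 10 and 7 calls in the order of comparisons above. CAT1 in OXmiR400 against WT then had an adjusted p of 0.109 in limma. Same-numbered libraries of OXrPPR1 and WT correlated at -0.246, 0.12 and 0.077 in their deviations. Those of OXmiR400 correlated at 0.093, 0.133 and 0.045 with OXrPPR1, and at 0.006, 0.044 and 0.052 with WT. Libraries of different number ran from -0.378 to 0.31. Whether the numbers pair the samples cannot be decided from these values. APX2, at 0 to 1 unit, cannot be compared at this depth. If a unit is a read or a fragment, sAPX, with at least 542 units, is not limited by counting.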
